A study of Rattus norvegicus with 14 samples.

Results

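The transcripts described here are 9 markers of hippocampal interneurons and of calcium-binding proteins: Pvalb, Calb1, Calb2, Kcnc1, Kcnc2, Lhx6, Reln, Erbb4 and Nos1. They were taken by gene symbol from the deposited expression files and were found in all 14 libraries, as 9 of the 22601 genes listed. Gene expression was measured by RNA sequencing of hippocampal tissue from wild-type Wistar rats weighing 180 to 220 g, about 100 mg of tissue per sample. The rats formed 3 groups: the PTZ seizure model treated with Q808 (PTZ+Q808, n = 5), the PTZ seizure model treated with vehicle (PTZ, n = 5) and animals given vehicle alone (control, n = 4). PTZ stands for pentylenetetrazole, which provokes seizures by blocking the GABA-A receptor, and Q808 is the code name of the tested compound. The sources used here do not give the doses, the interval before sampling, the sex or the age. Y-linked transcripts differed between the libraries, as given with the processing. The design allows the model to be set against control, the treated model against control, and the treated model against the untreated model.

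Hippocampal interneurons are inhibitory neurons that release GABA, and they are commonly told apart by the calcium-binding proteins they hold. Parvalbumin marks fast-spiking basket and axo-axonic cells, whose brief action potentials depend on Kv3 potassium channels, and calretinin marks a class of interneurons that contact other interneurons. Calbindin is found in some interneurons and also in granule cells of the dentate gyrus and in part of the CA1 pyramidal cells, and calretinin is also found in mossy cells in some rodents, so neither transcript belongs to interneurons alone. Because whole tissue was sequenced, fewer cells of a type and less RNA per cell cannot be told apart.

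All 9 transcripts were present in every library. On the FPKM scale (fragments scaled by transcript length and library size by the authors, so that genes are compared per length), the mean level over the 14 libraries was 68.2 FPKM for Pvalb and 64.9 FPKM for Calb1. It was 24.5 FPKM for Calb2, 20.3 FPKM for Kcnc1, 12.3 FPKM for Kcnc2 and 10.7 FPKM for Reln. Nos1 averaged 5.85 FPKM, Erbb4 4.60 FPKM and Lhx6 3.53 FPKM. Within this order, Calb1 was above Calb2 and Kcnc1 was above Kcnc2 in 14 of 14 libraries with no overlap of their ranges. Reln was above Nos1, and Nos1 above Erbb4, in 14 of 14 libraries, although the ranges overlapped. Pvalb exceeded Calb1 in 10 of 14 libraries: in 2 of 5 PTZ+Q808 libraries, 4 of 5 PTZ libraries and 4 of 4 control libraries. Calb2 exceeded Kcnc1 in 10 of 14, Kcnc2 exceeded Reln in 12 of 14 and Erbb4 exceeded Lhx6 in 10 of 14. The ranges of these neighbours, Pvalb and Calb1 included, overlapped over the 14 libraries, and their order was not tested. Within the 4 controls the ranges of Pvalb and Calb1 did not overlap, nor did those of Calb2 and Kcnc1.

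Other transcripts of GABA neurons were measured in the same libraries as a check of the tissue. Gad1 and Gad2, which encode the enzymes that make GABA, ranged over the 14 libraries from 76.2 to 95.4 FPKM and from 38.5 to 62.3 FPKM. The vesicular GABA transporter Slc32a1 ranged from 31.4 to 58.6 FPKM, the peptide somatostatin (Sst) from 147 to 241 FPKM and the peptide Vip from 7.99 to 16.8 FPKM. Npy, which encodes neuropeptide Y of many hippocampal interneurons, was listed at 0 to 0.207 FPKM, which may be a failed estimate, so no level of Npy is read from it.

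Before the comparisons, 3 libraries stood apart in markers of another brain region or tissue. Summed over 6 cerebellar markers, with Pvalb and Calb1 left out, PTZ replicate 1 reached 197 FPKM, and the other 13 libraries lay between 9.13 and 21.5 FPKM. All 6 of those markers were higher in that library than in any other. Summed over 7 pituitary markers, PTZ+Q808 replicate 3 reached 687 FPKM, against 2.61 to 12.6 FPKM in the others. Summed over 12 striatal markers, control replicate 2 reached 847 FPKM, against 83.5 to 155 FPKM in the others. No marker of these 3 lists was at 0 in every library. The same libraries were the highest of their groups in the sum of 11 choroid plexus markers, at 7407 FPKM in PTZ+Q808, 5839 FPKM in PTZ and 7765 FPKM in control, where the lowest library of each group held 401, 183 and 105 FPKM in the same order of groups, and 1 of the 11 was at 0 in every library. Control replicate 2 also had the highest sum of 10 CA3 and CA2 pyramidal cell markers. The sum reached 810 FPKM against 344 to 440 FPKM in the others, although only 3 of the 10 markers were highest there. The same library held the highest value of all 8 oligodendrocyte markers. PTZ replicate 1 had the highest sum of 9 meningeal markers, at 326 FPKM against 74.1 to 272 FPKM in the others. In PTZ replicate 3, 7 of 12 neocortical markers were higher than in any other library, although its sum of 194 FPKM lay below that of PTZ replicate 4 and PTZ+Q808 replicate 1. The changes of the 9 members are given with and without the first 3 libraries. Of 57 changes looked at among genes of the related lists, 17 moved by over 1.5 times or turned sign without them.

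**Figure D1:**
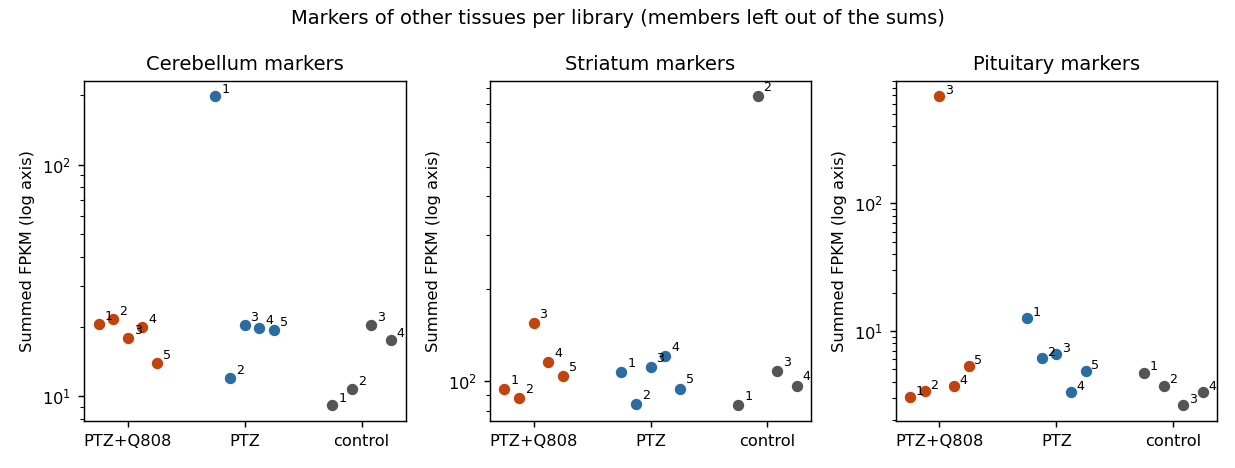
Summed FPKM of cerebellar, striatal and pituitary marker genes (y axis, log scale) in each library of the PTZ+Q808, PTZ and control groups (x axis). Each point is 1 library with its replicate number. One library per panel stands above the rest: PTZ replicate 1 at 197 FPKM for cerebellum, control replicate 2 at 847 FPKM for striatum and PTZ+Q808 replicate 3 at 687 FPKM for pituitary.

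None of the 9 transcripts passed the test in any comparison. In PTZ versus control, 0 of 9 passed an adjusted p under 0.05 in limma with Benjamini-Hochberg adjustment over the 12744 genes tested, where 0.0314% of all genes passed. In PTZ+Q808 versus control 0 of 9 passed, where 2.87% of all genes did. In PTZ+Q808 versus PTZ 0 of 9 passed, and the share among all genes was 0%. At an unadjusted p under 0.05, the members passing numbered 0 in PTZ versus control (8.11% of all genes), 1 in PTZ+Q808 versus control (20.7%) and 0 in PTZ+Q808 versus PTZ (6.14%). That 1 was Calb1. The values of the groups compared overlapped for every transcript in every comparison, where 3.03%, 8.91% and 0.777% of all genes did not overlap in these 3 comparisons, in the same order. The count of members called remained 0 under all 26 alternative settings. The comparisons share libraries with each other, so they are not independent.

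**Figure D2:**
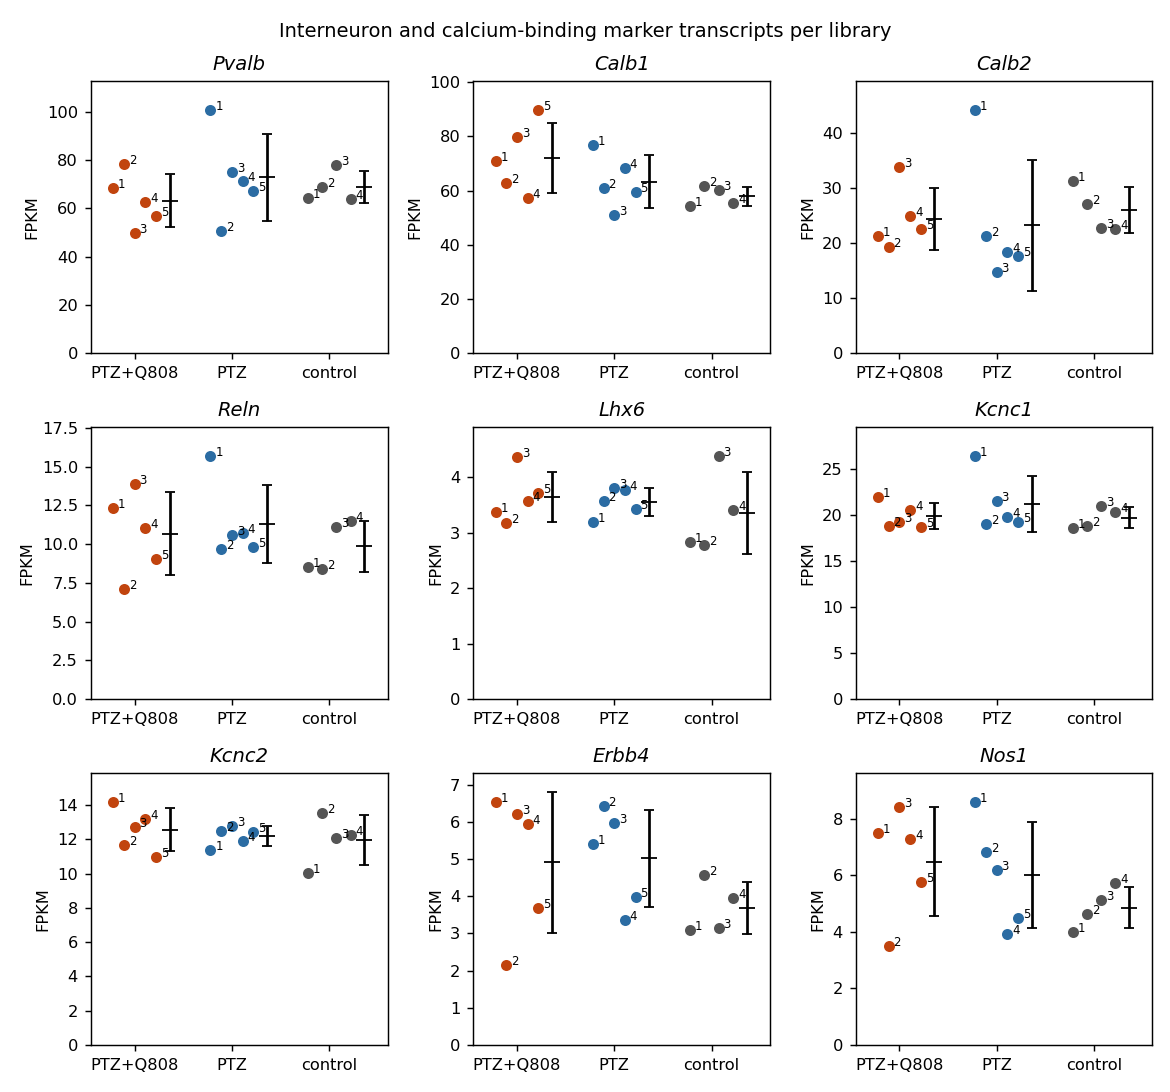
FPKM of each of the 9 transcripts (y axis, starting at 0) by group (x axis: PTZ+Q808, PTZ, control). Points are libraries with their replicate numbers, and the bars are group means with 1 SD. The groups overlap in every panel, and PTZ replicate 1 is the highest library for Pvalb, Calb2, Reln, Kcnc1 and Nos1.

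Among the calcium-binding proteins, Pvalb (gene identifier 25269) encodes parvalbumin, a fast calcium buffer. It was measured at 68.3, 78.2, 49.6, 62.6 and 57.0 FPKM in the 5 PTZ+Q808 libraries, at 101, 50.5, 74.8, 71.2 and 67.3 FPKM in the 5 PTZ libraries and at 64.4, 68.8, 77.9 and 64.0 FPKM in the 4 controls. The highest value was PTZ replicate 1 and the lowest PTZ+Q808 replicate 3, both among the libraries with markers of another tissue, and the controls lay inside the range of the other groups. The group means were 63.1 ± 10.9 FPKM in PTZ+Q808, 72.9 ± 18.1 FPKM in PTZ and 68.8 ± 6.45 FPKM in control (SD). On the log2(FPKM + 1) scale the difference was 0.05 for PTZ versus control, with a 95% interval from -0.29 to 0.40, and -0.13 for PTZ+Q808 versus control, with an interval from -0.48 to 0.21. Cerebellar Purkinje cells and interneurons also express Pvalb. Without PTZ replicate 1 the difference of Pvalb between PTZ and control was -0.07 (limma adjusted p = 0.906).

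Calb1 (gene identifier 83839) encodes calbindin, a slower calcium buffer. It was measured at 70.9, 62.9, 79.6, 57.4 and 89.6 FPKM in the PTZ+Q808 libraries, at 76.7, 60.8, 51.1, 68.3 and 59.6 FPKM in the PTZ libraries and at 54.2, 61.7, 60.1 and 55.4 FPKM in the controls. In the PTZ+Q808 group 4 of 5 libraries were above the highest control, and replicate 4 lay inside the control range. The means were 72.1 ± 12.9 FPKM in PTZ+Q808, 63.3 ± 9.65 FPKM in PTZ and 57.8 ± 3.62 FPKM in control. Calb1 thus had the only 95% interval of the 27 computed for the 9 transcripts that did not hold 0. The log2 difference of PTZ+Q808 versus control was 0.30 (SE 0.126, interval 0.03 to 0.57), with an unadjusted p of 0.0334 and a limma adjusted p of 0.20, which did not pass. Over the alternatives the limma adjusted p of this difference ran from 0.0690 to 0.362, and without the 3 libraries with markers of another tissue the difference was 0.29 (limma adjusted p = 0.313). Calb1 differed by 0.12 for PTZ versus control (interval -0.15 to 0.39) and by 0.18 for PTZ+Q808 versus PTZ (interval -0.08 to 0.43).

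Beside Calb1 stand the markers of the principal cells that also hold calbindin. The summed level of 10 dentate granule cell markers was 150 to 201 FPKM in PTZ+Q808, 140 to 176 FPKM in PTZ and 117 to 176 FPKM in control. The sum of 9 CA1 pyramidal cell markers was 353 to 426 FPKM in PTZ+Q808, 349 to 447 FPKM in PTZ and 298 to 425 FPKM in control. PTZ+Q808 replicate 5, the highest library for Calb1, was also the highest library of all 14 for the granule cell sum, at 201 FPKM. The other groups went the other way. PTZ replicate 1 and control replicate 2, the highest of their groups for Calb1, had the lowest granule cell sums there, at 140 and 117 FPKM. These sums overlapped between groups, and their part in the level of Calb1 was not tested.

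Calb2 (gene identifier 117059) encodes calretinin and had the largest residual spread of the 9 in the fit of all libraries, with a residual SD of 0.415 on the log2 scale, against 0.204 without the 3 libraries with markers of another tissue, where Erbb4 had the largest at 0.428. It was measured at 21.4, 19.3, 33.9, 25.0 and 22.6 FPKM in the PTZ+Q808 libraries, at 44.2, 21.3, 14.7, 18.4 and 17.7 FPKM in the PTZ libraries and at 31.4, 27.2, 22.8 and 22.6 FPKM in the controls. PTZ replicate 1 held the highest value of all 14 libraries, and the other 4 PTZ libraries lay below every control. Over all libraries the means were 24.4 ± 5.67 FPKM in PTZ+Q808, 23.3 ± 11.9 FPKM in PTZ and 25.98 ± 4.15 FPKM in control, and the log2 difference of PTZ versus control was -0.25 (SE 0.247, interval -0.78 to 0.28, limma adjusted p = 0.810).

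Without PTZ replicate 1, Calb2 averaged 18.0 ± 2.73 FPKM in PTZ and 25.98 ± 4.15 FPKM in control (SD, n = 4 each). The log2 difference of Calb2 was then -0.50 (SE 0.159, interval -0.84 to -0.16), with an unadjusted p of 0.00720 and a limma adjusted p of 0.412, which did not pass. In that fit, 9.07% of all genes had an unadjusted p under 0.05, and 2.9% of all genes lay lower in PTZ with no overlap, as Calb2 did. The library left out is the one with high cerebellar markers, and calretinin is abundant in cerebellar granule cells. Its sum of 9 thalamic and habenular markers, with Calb2 left out, was 62.1 FPKM, the highest in its group, against 25.6 FPKM in the lowest PTZ library and 29.4 to 93.5 FPKM in control. Their part in the level of Calb2 was not tested. For PTZ+Q808 the log2 difference of Calb2 was -0.10 versus control (interval -0.63 to 0.43) and 0.15 versus PTZ (interval -0.35 to 0.65). Leaving out 1 library moved the difference of Calb2 between PTZ+Q808 and PTZ over the range 0.021 to 0.40, with 0.40 reached without PTZ replicate 1, and moved that versus control from -0.22 to -0.0085.

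The Kv3 channel subunits were the steadiest of the 9. Kcnc1 (gene identifier 25327) encodes Kv3.1, and Kcnc2 (gene identifier 246153) encodes Kv3.2, which let fast-spiking cells repolarise quickly. Kcnc1 was measured at 22.0, 18.8, 19.3, 20.6 and 18.7 FPKM in PTZ+Q808, at 26.4, 19.1, 21.5, 19.7 and 19.3 FPKM in PTZ and at 18.6, 18.9, 21.0 and 20.3 FPKM in control. Apart from PTZ replicate 1, the values of Kcnc1 in the groups lay on top of each other. Kcnc2 was measured at 14.2, 11.7, 12.7, 13.2 and 10.99 FPKM in PTZ+Q808, at 11.4, 12.5, 12.8, 11.9 and 12.5 FPKM in PTZ and at 10.01, 13.5, 12.1 and 12.2 FPKM in control. The lowest and highest values of Kcnc2 in control enclosed all 5 PTZ libraries.

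The intervals of the Kv3 transcripts were the narrowest of the 9. For Kcnc1 the log2 difference was 0.09 for PTZ versus control (interval -0.09 to 0.28), 0.01 for PTZ+Q808 versus control (interval -0.17 to 0.20) and -0.08 for PTZ+Q808 versus PTZ (interval -0.26 to 0.09). For Kcnc2 it was 0.03 (interval -0.15 to 0.21), 0.07 (interval -0.11 to 0.24) and 0.04 (interval -0.13 to 0.20) in the same comparisons. None of these 6 intervals reached beyond 0.28 in either direction.

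Lhx6 (gene identifier 311901) encodes a transcription factor that specifies interneurons born in the medial ganglionic eminence, among them the parvalbumin and somatostatin classes. It was measured at 3.38, 3.18, 4.36, 3.57 and 3.72 FPKM in PTZ+Q808, at 3.20, 3.56, 3.80, 3.77 and 3.42 FPKM in PTZ and at 2.84, 2.78, 4.38 and 3.40 FPKM in control. Control held both the lowest library and the highest. The log2 difference of Lhx6 was 0.08 for PTZ versus control (interval -0.15 to 0.30), 0.10 for PTZ+Q808 versus control (interval -0.12 to 0.33) and 0.03 for PTZ+Q808 versus PTZ (interval -0.19 to 0.24).

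**Figure D3:**
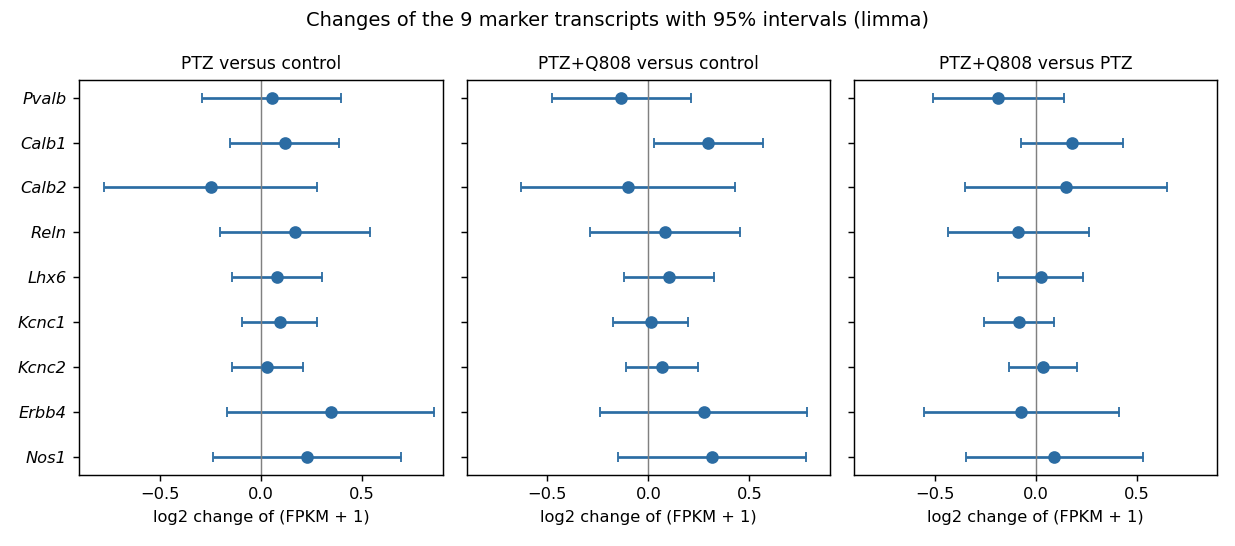
Log2 change of (FPKM + 1) for each of the 9 transcripts (x axis) in PTZ versus control, PTZ+Q808 versus control and PTZ+Q808 versus PTZ. Points are limma estimates and bars 95% intervals. The interval of Calb1 in PTZ+Q808 versus control, 0.03 to 0.57, is the one that does not cross 0, and the narrow bars are those of Kcnc1 and Kcnc2.

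The remaining 3 members encode a secreted protein, a receptor and an enzyme. Reln (gene identifier 24718) encodes reelin, an extracellular glycoprotein that in the adult hippocampus comes from interneurons and Cajal-Retzius cells. Erbb4 (gene identifier 59323) encodes the neuregulin receptor of interneurons, and Nos1 (gene identifier 24598) encodes neuronal nitric oxide synthase, present in neurogliaform and ivy cells. The promoter windows of these 3 are printed because Nos1 was correlated across libraries with each of the other two, as given further on, while Reln and Erbb4 did not pass that test (r = 0.61, permutation adjusted p = 0.102). Each runs from 250 bases before to 50 bases after the RefSeq gene start in GRCr8, on the strand of the gene, with capitals for the cAMP response element TGACGTCA and its shorter core TGACG.
Nos1, chr12:44371788-44372087, minus strand: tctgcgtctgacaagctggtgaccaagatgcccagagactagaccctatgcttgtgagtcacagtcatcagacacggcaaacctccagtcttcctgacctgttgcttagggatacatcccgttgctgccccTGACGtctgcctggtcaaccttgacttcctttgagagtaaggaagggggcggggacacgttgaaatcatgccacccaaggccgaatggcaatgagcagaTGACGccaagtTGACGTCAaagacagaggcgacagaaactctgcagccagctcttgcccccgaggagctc
Erbb4, chr9:78045557-78045856, minus strand: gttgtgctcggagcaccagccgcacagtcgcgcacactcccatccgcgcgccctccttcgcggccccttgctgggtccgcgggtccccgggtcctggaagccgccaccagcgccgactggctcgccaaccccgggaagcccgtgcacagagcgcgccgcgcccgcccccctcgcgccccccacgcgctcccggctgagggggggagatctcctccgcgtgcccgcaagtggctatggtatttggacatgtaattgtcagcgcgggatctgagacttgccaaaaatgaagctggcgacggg
Reln, chr4:13628318-13628617, plus strand: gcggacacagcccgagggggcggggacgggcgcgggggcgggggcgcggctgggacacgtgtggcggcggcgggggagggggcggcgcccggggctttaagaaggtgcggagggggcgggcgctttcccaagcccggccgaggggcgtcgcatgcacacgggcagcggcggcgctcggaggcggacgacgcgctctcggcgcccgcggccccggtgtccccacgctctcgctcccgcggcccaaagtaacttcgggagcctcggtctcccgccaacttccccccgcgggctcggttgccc

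Of the 9 members, 7 had such a window in the RefSeq table. GC content was 79% in the Reln window, 70.3% in the Erbb4 window and 55.3% in the Nos1 window, and the median over all windows was 51.7%. Both strands were searched for 6 motifs. The Nos1 window held 1 TGACGTCA, starting 9 bases before the gene start, a sequence found in 1.83% of 33469 windows. It held 4 matches to TGACG, found in 21.2% of windows, of which 2 lie inside that TGACGTCA on opposite strands. The Nos1 window also held 1 AP-1 site TGANTCA (7.33% of windows) and 1 GC box GGGGCGGGG (9.73%). The Reln window held 2 Egr sites GCGNGGGCG (4.98% of windows) and 2 GC boxes, of which 1 overlaps both Egr sites. The Erbb4 window held none of the 6, and TATAAA, found in 14.2% of windows, was in none of the 3. A match describes the letters of the window only.

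Reln was measured at 12.3, 7.11, 13.9, 11.05 and 9.04 FPKM in the PTZ+Q808 libraries, at 15.7, 9.71, 10.6, 10.7 and 9.81 FPKM in the PTZ libraries and at 8.50, 8.4, 11.1 and 11.5 FPKM in the controls. The PTZ+Q808 values enclosed all controls, and PTZ replicate 1 was the highest library. The log2 difference was 0.17 for PTZ versus control (interval -0.20 to 0.54), 0.08 for PTZ+Q808 versus control (interval -0.29 to 0.46) and -0.09 for PTZ+Q808 versus PTZ (interval -0.44 to 0.26). Without the 3 libraries with markers of another tissue, the difference of Reln was -0.01 for PTZ versus control (limma adjusted p = 0.990). The 5 other Cajal-Retzius cell markers summed to 9.02 to 11.3 FPKM in PTZ+Q808, 9.49 to 13.3 FPKM in PTZ and 9.98 to 15.1 FPKM in control. PTZ replicate 1, the library with high cerebellar markers, was the highest PTZ library for them too. The other groups did not show this. Control replicate 2 had the highest sum, at 15.1 FPKM, and the lowest Reln of the controls, at 8.4 FPKM. In PTZ+Q808, replicate 4 had the highest sum and replicate 3 the highest Reln. The part of these markers in the level of Reln was not tested.

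Erbb4 was measured at 6.54, 2.15, 6.22, 5.94 and 3.69 FPKM in the PTZ+Q808 libraries, at 5.39, 6.42, 5.96, 3.35 and 3.98 FPKM in the PTZ libraries and at 3.10, 4.57, 3.14 and 3.94 FPKM in the controls. In each group of the model 3 of 5 libraries were above every control, and PTZ+Q808 replicate 2 was below all of them. The means were 4.91 ± 1.91 FPKM in PTZ+Q808, 5.02 ± 1.31 FPKM in PTZ and 3.69 ± 0.706 FPKM in control. The log2 difference was 0.34 for PTZ versus control (SE 0.239, interval -0.17 to 0.86, limma adjusted p = 0.729), 0.27 for PTZ+Q808 versus control (interval -0.24 to 0.78) and -0.07 for PTZ+Q808 versus PTZ (interval -0.55 to 0.41).

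Nos1 was measured at 7.48, 3.49, 8.42, 7.27 and 5.75 FPKM in the PTZ+Q808 libraries, at 8.60, 6.84, 6.20, 3.92 and 4.48 FPKM in the PTZ libraries and at 3.98, 4.62, 5.12 and 5.72 FPKM in the controls. The lowest library of all was PTZ+Q808 replicate 2, which was also the lowest for Erbb4 and Reln and had the highest sum of FPKM over all genes, and 4 of 5 PTZ+Q808 libraries were above every control. The means were 6.48 ± 1.93 FPKM in PTZ+Q808, 6.01 ± 1.88 FPKM in PTZ and 4.86 ± 0.739 FPKM in control. The log2 difference was 0.23 for PTZ versus control (interval -0.24 to 0.69), 0.32 for PTZ+Q808 versus control (interval -0.15 to 0.78, limma adjusted p = 0.438) and 0.09 for PTZ+Q808 versus PTZ (interval -0.35 to 0.53).

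The differences of the members were also computed without the 3 libraries with markers of another tissue. In PTZ versus control the log2 difference was then 0.08 for Calb1, -0.48 for Calb2, 0.04 for Lhx6, 0.11 for Kcnc2, 0.40 for Erbb4 and 0.08 for Nos1. That of Nos1 was 0.10 without PTZ replicate 1 alone, and those of Calb1 and Kcnc1 were then 0.05 and 0.01. Without the 3, the difference of PTZ+Q808 versus control was -0.05 for Pvalb, -0.20 for Calb2, 0.12 for Kcnc2, 0.27 for Erbb4 and 0.20 for Nos1, and that of Kcnc1 was 0.00061. For PTZ+Q808 versus PTZ it was then 0.21 for Calb1, 0.28 for Calb2, -0.07 for Reln, 0.0067 for Kcnc2, -0.13 for Erbb4 and 0.12 for Nos1. The members whose difference turned sign without the 3 were Pvalb, Reln and Kcnc1 in PTZ versus control, Reln and Lhx6 in PTZ+Q808 versus control, and Pvalb, Lhx6 and Kcnc1 in PTZ+Q808 versus PTZ.

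The 9 transcripts differed widely in how much they varied between animals of one group. The residual SD within groups, on the log2(FPKM + 1) scale, was 0.415 for Calb2, 0.397 for Erbb4 and 0.361 for Nos1, against a median of 0.138 over all tested genes. These 3 stood at percentiles 95.04, 94.6 and 93.3 of all tested genes. Reln (0.287) and Pvalb (0.267) followed, then Calb1 (0.207) and Lhx6 (0.156), and Kcnc1 (0.134) and Kcnc2 (0.125) were below the median. Without the 3 libraries with markers of another tissue, the residual SD was 0.204 for Calb2 and 0.209 for Pvalb, and it was 0.428 for Erbb4 and 0.343 for Nos1. The spread of Calb2 was thus smaller without those libraries, and that of Erbb4 was not.

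Of the 36 pairs of the 9 transcripts, 3 were correlated over the 14 libraries after Benjamini-Hochberg adjustment of permutation p-values (log2(FPKM + 1), 100000 resamples, two-sided). Erbb4 and Nos1 had a Pearson r of 0.86 (permutation p = 0.00016, adjusted p = 0.00576) and a Spearman rho of 0.811 (permutation p = 0.00072, adjusted p = 0.0131). Reln and Nos1 had an r of 0.80 (permutation p = 0.00056, adjusted p = 0.0101) and a rho of 0.714 (permutation p = 0.00513, adjusted p = 0.0462). Reln and Kcnc1 had an r of 0.76 (permutation p = 0.00109, adjusted p = 0.0131) and a rho of 0.815 (permutation p = 0.00073, adjusted p = 0.0131). The order of the libraries was not the same for each gene: PTZ replicate 2, with the second highest Nos1 of its group at 6.84 FPKM, had the lowest Reln of its group at 9.71 FPKM.

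These relations differed in how much they rested on single libraries. Without the 2 libraries farthest from the median of the first gene, r was 0.80 for Erbb4 and Nos1 (permutation p = 0.00262), 0.67 for Reln and Nos1 (permutation p = 0.0184) and 0.58 for Reln and Kcnc1 (permutation p = 0.0471). Deviations from group means gave 0.86 for Erbb4 and Nos1, 0.83 for Reln and Nos1 and 0.75 for Reln and Kcnc1. Without the 3 libraries with markers of another tissue, r was 0.90 for Erbb4 and Nos1 (permutation adjusted p = 0.0133), 0.66 for Reln and Nos1 (permutation adjusted p = 0.136) and 0.81 for Reln and Kcnc1 (permutation adjusted p = 0.0283). Kcnc1 and Kcnc2 passed in that setting, with an r of 0.77 (permutation adjusted p = 0.0439), against 0.13 over all 14 libraries (permutation adjusted p = 0.775). Without PTZ replicate 1 alone, Reln and Kcnc1 fell short of the threshold (r = 0.62, permutation adjusted p = 0.141), as did Reln and Nos1 (permutation adjusted p = 0.0562). After the values were seen, the libraries were also split by Erbb4 into 2 sets. Such a split narrows the range of Erbb4 within each set, which by itself lowers r there. The r within the sets therefore cannot show where the relation of Erbb4 and Nos1 lies. In 6 libraries Erbb4 was 5.39 to 6.54 FPKM and Nos1 6.20 to 8.60 FPKM, and there r was -0.34. These 6 were 3 PTZ+Q808 and 3 PTZ libraries, with 0 of the 4 controls among them. Because the sets were made from the Erbb4 values, this make-up is no test of a group difference. Erbb4 passed in none of the comparisons. In the other 8 Erbb4 was 2.15 to 4.57 FPKM and Nos1 3.49 to 5.75 FPKM, and r was 0.61. The labels give no batch or date, so no relation could be computed within batches.

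**Figure D4:**
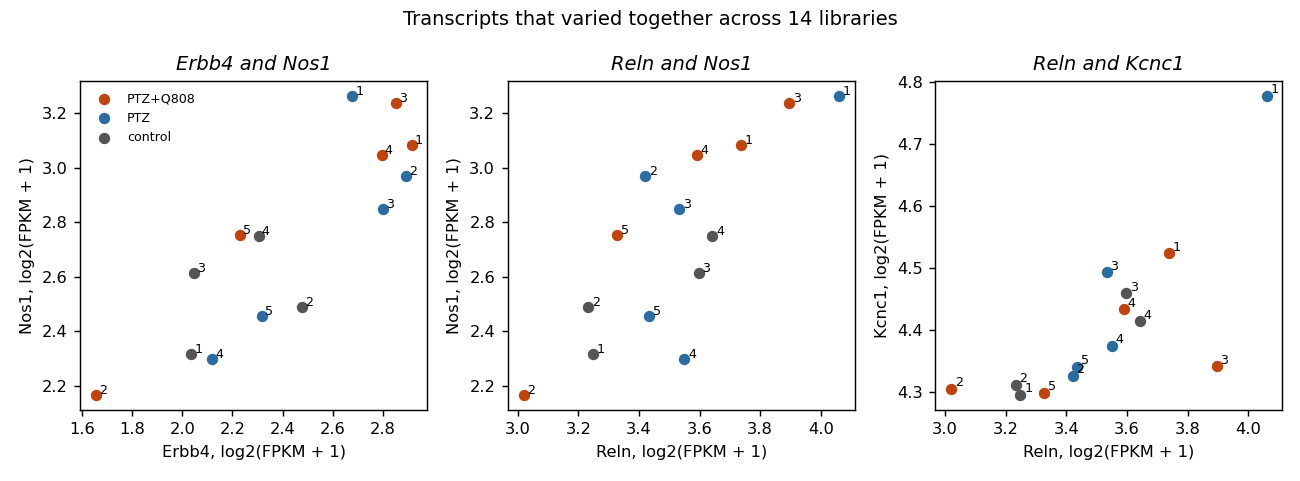
Levels of Erbb4 and Nos1, Reln and Nos1, and Reln and Kcnc1 in the 14 libraries (both axes log2(FPKM + 1)), coloured by group, with replicate numbers. Each point is 1 library. The Pearson r is 0.86, 0.80 and 0.76, and PTZ replicate 1 is at the upper right of both plots with Reln.

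Pvalb and Kcnc1, both of fast-spiking cells, had an r of 0.69 (permutation p = 0.00971, adjusted p = 0.0874) and a rho of 0.385 (permutation p = 0.174), and r was 0.35 without PTZ+Q808 replicate 3 and PTZ replicate 1. Kcnc2 and Erbb4 passed by rank only, with a rho of 0.745 (permutation adjusted p = 0.0370) and an r of 0.61 (permutation adjusted p = 0.102). Lhx6 was correlated with none of the other 8 after adjustment, and neither was Calb1 or Calb2.

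Across all tested genes, the genes whose within-group deviations were most like each member were named as a description, with no test, over 14 libraries that share their scaling. For Pvalb they were Slc25a33 (r = 0.90), Psph (0.88) and Supv3l1 (0.84). For Calb1 they were Ube2l6 (0.87), Nfam1 (0.84) and Edn1 (0.83). For Calb2 they included Pcbd1 (0.94) and Ddx58 (0.93), and without the 3 libraries with markers of another tissue these values of r were 0.76 and 0.67. For Reln they were Lin7a (0.92), Hlcs (0.91) and Lrrc41 (0.90). For Lhx6 they were Rab3b (0.92), Slc7a3 (0.90) and Mnt (0.90).

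For Kcnc1 the most alike genes were Zbtb46 (0.94), Ank1 (0.89) and Kcnj12 (0.89), and for Kcnc2 they were Prkcb (0.92), Kcnk2 (0.87) and Gabrg3 (0.87). For Erbb4 they were Unc79, Acaca and Tmem131 (each 0.96), and for Nos1 they were Kpna6 (0.96), Clpb (0.96) and Mtmr9 (0.95). Among the 12744 genes tested, Erbb4 and Nos1 had more such neighbours than the other members. An r above 0.9 was found for 81 genes with Erbb4 and 58 with Nos1, against 8 with Calb2 and 3 with Reln. The count was 1 each with Pvalb, Lhx6, Kcnc1 and Kcnc2, and 0 with Calb1. Such counts were not made for genes outside the 9, so whether 81 or 58 is unusual is not known. Between Erbb4 and Nos1 themselves the r of deviations was 0.86, below 0.9.

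The genes around the members were then read from 7 lists. Of all genes tested, 0.0314%, 2.87% and 0% passed in PTZ versus control, PTZ+Q808 versus control and PTZ+Q808 versus PTZ. The shares at an unadjusted p under 0.05 were 8.11%, 20.7% and 6.14% in the same order. Of 28 tested other GABAergic interneuron genes, 0 passed in any of the 3 comparisons by limma, and 3, 6 and 0 had an unadjusted p under 0.05 in PTZ versus control, PTZ+Q808 versus control and PTZ+Q808 versus PTZ. Their median log2 change was -0.03 in PTZ versus control and -0.03 in PTZ+Q808 versus control, where the median of all genes was -0.01 and -0.02, and 0.02 in PTZ+Q808 versus PTZ. Slc32a1, the transporter that loads GABA into vesicles, was measured at 35.0, 33.3, 34.5, 34.9 and 33.2 FPKM in PTZ and at 39.0, 58.6, 40.8 and 37.9 FPKM in control. All 5 PTZ libraries were below all 4 controls, in a comparison where 3.03% of all genes did not overlap. The log2 change of Slc32a1 was -0.34 (SE 0.111, limma adjusted p = 0.483), which did not pass. The highest control, replicate 2, is the library with striatal markers at 847 FPKM, and without it the log2 change of Slc32a1 was -0.19.

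Other genes of that list came nearest to the threshold without passing it. Dlx5, a homeobox gene of developing interneurons, averaged 2.20 ± 0.238 FPKM in PTZ+Q808 and 3.76 ± 1.36 FPKM in control, with a log2 change of -0.54 (limma adjusted p = 0.0691) and with -0.36 when control replicate 2 was left out. Dlx6 had a log2 change of -0.59 in PTZ versus control (limma adjusted p = 0.468) and Dlx5 one of -0.40 (limma adjusted p = 0.563). Control replicate 2 held Dlx6 at 6.31 FPKM, with the nearest control at 2.68 FPKM, and without it these changes were -0.33 for Dlx6 and -0.22 for Dlx5. Vip was measured at 16.8, 15.2, 14.6, 13.8 and 14.1 FPKM in PTZ+Q808, all above the controls at 7.99, 9.95, 12.6 and 10.1 FPKM. Of all genes, 8.91% did not overlap in PTZ+Q808 versus control. The log2 change of Vip was 0.52 (SE 0.153, limma adjusted p = 0.0752), and over the alternatives the limma adjusted p ran from 0.0276 to 0.202. The summed level of the 12 neocortical markers was 130 to 196 FPKM in PTZ+Q808, with a median of 172 FPKM, and 107 to 167 FPKM in control, with a median of 122 FPKM. The controls lowest for Vip, replicates 1 and 2, were also the lowest for this sum, at 107 and 110 FPKM. PTZ replicate 1 was the lowest of its group for both. The order differed elsewhere. PTZ+Q808 replicate 2 had the lowest sum of its group, at 130 FPKM, and the second highest Vip. PTZ replicate 5 held Vip at 15.0 FPKM with a sum of 137 FPKM, and PTZ replicate 2 held 10.4 FPKM with 151 FPKM. The part of this sum in the level of Vip was not tested. The smallest p in PTZ+Q808 versus PTZ belonged to Nr2f2 (log2 change 0.26), Vip (0.20) and Syt2 (-0.40), with limma adjusted p of 0.838 to 0.897.

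Of 28 tested other calcium-binding protein genes, 0 passed in PTZ versus control (3 at an unadjusted p under 0.05) or in PTZ+Q808 versus PTZ (0). In PTZ+Q808 versus control 1 passed, where 2.87% of all genes did. The 1 was Necab1, which encodes a neuronal EF-hand protein. Necab1 was measured at 55.6, 33.6, 50.1, 41.3 and 41.4 FPKM in PTZ+Q808 and at 24.7, 25.9, 35.5 and 30.6 FPKM in control. PTZ+Q808 replicate 2 lay inside the control range and the other 4 lay above it. Necab1 was higher in PTZ+Q808 by 0.58 on the log2 scale (SE 0.134, limma adjusted p = 0.0368). The call ended without the 3 libraries with markers of another tissue (0.48, limma adjusted p = 0.143). The neocortical sum was 196, 130, 172, 165 and 175 FPKM in the same PTZ+Q808 libraries and 107, 110, 167 and 135 FPKM in the same controls. PTZ+Q808 replicate 1 was the highest and replicate 2 the lowest of that group for both Necab1 and the sum, and the controls stood in the same order for both. In PTZ the lowest library was replicate 1 for both. The highest was replicate 2 for Necab1, at 44.2 FPKM, and replicate 4 for the sum, at 205 FPKM. The part of these markers in the level of Necab1 was not tested. Necab1 had a log2 change of 0.41 in PTZ versus control, Necab2 one of -0.30 and Vsnl1 one of 0.28, with limma adjusted p of 0.436 to 0.576. S100b (log2 change -0.15), Hpca (-0.20) and Vsnl1 (0.15) had the smallest p in PTZ+Q808 versus PTZ, with limma adjusted p of 0.838 to 0.863.

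Perineuronal nets are the matrix coats that surround many parvalbumin cells. Of 9 tested genes of that list, 1 passed in PTZ+Q808 versus control, where 2.87% of all genes did. The 1 was Hapln1, which encodes a link protein that ties proteoglycans to hyaluronan. Hapln1 was measured at 10.5, 10.8, 10.4, 8.87 and 9.62 FPKM in PTZ+Q808 and at 7.88, 8.72, 6.73 and 7.83 FPKM in control, so that every PTZ+Q808 library was above every control. Of all genes, 8.91% did not overlap in that comparison. Hapln1 was higher in PTZ+Q808 by 0.33 on the log2 scale (SE 0.0787, limma adjusted p = 0.0409). The call ended without the 3 libraries with markers of another tissue (0.37, limma adjusted p = 0.0704). In PTZ versus control 0 of 9 passed by limma, with 1 at an unadjusted p under 0.05, and the smallest p belonged to Bcan (log2 change -0.17), Hapln1 (0.13) and Hapln2 (-0.23). Between PTZ+Q808 and PTZ 0 of 9 passed, although 4 of 9 had an unadjusted p under 0.05, where 6.14% of all genes did. Those with the smallest p differed in direction: Hapln1 (0.20), Ptprz1 (0.22) and Acan (-0.17), the core proteoglycan of the nets. Acan averaged 0.961 FPKM in PTZ+Q808 and 1.20 FPKM in PTZ, near the filter of 1 FPKM.

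The reelin signalling list had 13 tested genes, of which 1 passed in PTZ+Q808 versus control, where 2.87% of all genes did. Pafah1b1, which encodes the dynein regulator Lis1, was measured at 136, 129, 129, 128 and 137 FPKM in PTZ+Q808, at 113, 131, 112, 122 and 130 FPKM in PTZ and at 109, 107, 105 and 110 FPKM in control. Every library of both model groups was above every control. Of all genes, 8.91% did not overlap in PTZ+Q808 versus control and 3.03% in PTZ versus control. Pafah1b1 was higher in PTZ+Q808 than in control by 0.28 on the log2 scale (SE 0.0535, limma adjusted p = 0.0226), and the difference of PTZ versus control was 0.17 (limma adjusted p = 0.468), which did not pass. The call ended without the 3 libraries with markers of another tissue (0.29, limma adjusted p = 0.0688). The reelin receptors had log2 changes near 0 in PTZ versus control: -0.01 for Vldlr, 0.01 for Lrp8, and 0.05 for their adaptor Dab1. In PTZ versus control 0 of 13 passed by limma, with 2 at an unadjusted p under 0.05, Pafah1b1 and the kinase Fyn (log2 change -0.13), and the next was Cdk5r1 (0.07). Between PTZ+Q808 and PTZ 0 of 13 passed by limma, with 1 at an unadjusted p under 0.05, Pafah1b1 (log2 change 0.12), followed by Rapgef1 (-0.12) and Dab2ip (-0.16).

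For the Kv3 family and fast-spiking partners, 0 of 13 tested genes passed by limma in any comparison, and 0, 1 and 0 had an unadjusted p under 0.05 in PTZ versus control, PTZ+Q808 versus control and PTZ+Q808 versus PTZ. Kcnc4, which encodes another Kv3 subunit, had a log2 change of 0.14 in PTZ versus control and of -0.09 in PTZ+Q808 versus PTZ. Of these 13 genes 2 had a positive change in PTZ+Q808 versus PTZ, with a list median of -0.10 against -0.0044 over all genes. Hcn2, a pacemaker channel, had the smallest p in PTZ+Q808 versus control, with a log2 change of -0.24 (limma adjusted p = 0.191). Without control replicate 2, the highest control for Hcn2 at 60.4 FPKM (nearest 45.5 FPKM), it was -0.14, and the change of Hcn2 in PTZ versus control was -0.065. The potassium channel subunit Kcnab2 had a log2 change of -0.14 in PTZ+Q808 versus control (limma adjusted p = 0.324). Among the smallest p in PTZ versus control were those of Hcn2, with a log2 change of -0.17 (limma adjusted p = 0.689), and of Scn1a (0.28, limma adjusted p = 0.724), the main sodium channel of fast-spiking cells. In PTZ+Q808 versus PTZ the modifier subunit Kcns3 had a log2 change of -0.17 (limma adjusted p = 0.897).

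Neuregulins are the ligands of Erbb4. Of 9 tested neuregulin and ErbB genes 0 passed by limma in any comparison, with 0, 2 and 0 at an unadjusted p under 0.05 in the same order. Erbb3, a neuregulin receptor of oligodendrocytes, averaged 6.04 ± 1.20 FPKM in PTZ+Q808 and 9.17 ± 2.40 FPKM in control, with a log2 change of -0.51 (limma adjusted p = 0.0860). The summed level of 8 oligodendrocyte markers was 2687 to 5110 FPKM in PTZ+Q808 and 3681 to 7269 FPKM in control, and its part in the level of Erbb3 was not tested. In the same comparison Erbin had a log2 change of 0.28 and Nrg2 one of -0.14. Between PTZ and control the smallest p belonged to Erbb3 (-0.26), Nrg3 (0.13) and Erbin (0.12), with limma adjusted p of 0.707 to 0.825. For PTZ+Q808 versus PTZ it belonged to Erbb3 (-0.26), Bace1 (-0.17) and Erbin (0.16), with limma adjusted p of 0.838 to 0.864.

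Of 15 tested nitric oxide signalling genes 0 passed by limma, with 1, 0 and 0 at an unadjusted p under 0.05. The guanylyl cyclase subunit Gucy1a2 averaged 2.92 ± 0.795 FPKM in PTZ and 1.84 ± 0.384 FPKM in control, with a log2 change of 0.46 (limma adjusted p = 0.594), followed by Ddah2 (-0.16) and Nosip (-0.11). In PTZ+Q808 versus control the smallest p belonged to Gucy1a2 (log2 change 0.41), Nosip (-0.10) and the phosphodiesterase Pde9a (0.10), and in PTZ+Q808 versus PTZ to Pde5a (-0.26), Pde9a (0.10) and Nos3 (-0.19). Dlg4, which encodes the scaffold that holds Nos1 at synapses, had a log2 change of -0.02 in PTZ versus control and of -0.05 in PTZ+Q808 versus control.

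**Figure D5:**
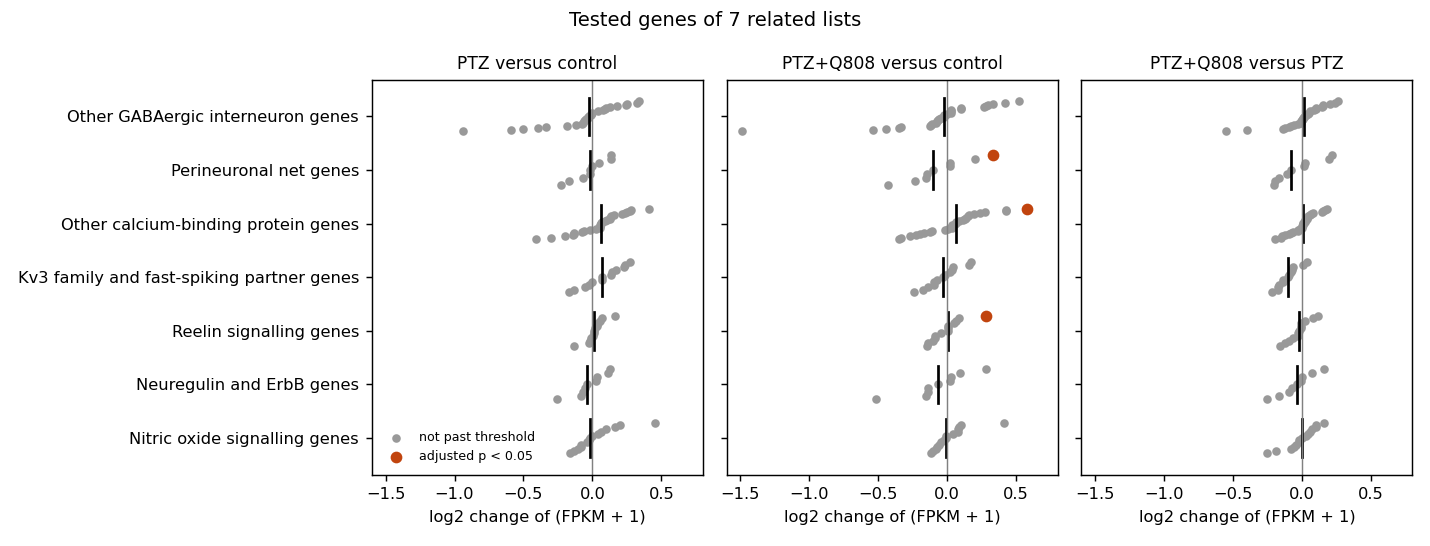
Log2 change of (FPKM + 1) for the tested genes of 7 related lists (rows) in the 3 comparisons (x axis). Each point is 1 gene, the black bar is the list median, and the larger orange points passed an adjusted p of 0.05. Those are Hapln1, Necab1 and Pafah1b1 in PTZ+Q808 versus control, and the medians lie between -0.10 and 0.07.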

How the data were processed

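Hippocampal tissue was sequenced as 14 libraries: PTZ+Q808 (n = 5), PTZ (n = 5) and control (n = 4), grouped by their labels. Per the labels' protocols, bead-captured mRNA from TRIzol extracts was run on a BGI T7. The deposited values are FPKM per gene, computed by the authors. HISAT2, Bowtie2, StringTie, Cufflinks, HTSeq, DESeq, SAMtools and Trimmomatic are named without role or version, per the submitters' processing notes. The sources used here do not give the build or the number of reads, so no counting error is given. The sum of FPKM was 383126 to 419358 per library.

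The 12744 genes that reached 1 FPKM in at least 4 libraries, all 9 members among them, were fitted as log2(FPKM + 1), with no further scaling, in limma 3.58.1 (R 4.3.3) with a mean-dependent prior variance and the 3 groups together, leaving 11 residual degrees of freedom. Fold changes on this scale understate those of low genes. Two-sided p-values were adjusted over all genes tested by Benjamini-Hochberg, with calls made under 0.05. The fit was tested on simulated data. Only the design text says that the samples are separate animals, so p-values measure the spread between these samples. Pairs of members were compared by permutation.

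The members and lists were chosen with earlier results of these data known. Named were all members, the called genes of each list or else the 3 of smallest p, and the 3 genes most like each member; some of the genes this rule gives are not reported here. Vldlr, Lrp8, Dab1, Kcnc4, Dlg4 and the genes of the tissue check were added for their roles after values were seen. Alternatives changed the pseudocount, filter, scaling, prior, weights, groups fitted and libraries, and added a replicate block. Leaving out the 3 libraries with another tissue's markers, a term for Y-linked transcripts and the split of libraries by Erbb4 were added after seeing the data. The term for Y-linked transcripts divided the libraries by whether the Y-linked gene Kdm5d reached 1 FPKM. The libraries differed in this, and how they fell over the groups is not reported here. Promoter windows are from RefSeq (GRCr8). Figures were drawn with matplotlib 3.10.9.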

Additional observations from a re-analysis of the deposited data

Results flagged for a closer look

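Of 144 gene and group combinations looked at (the 9 members and the list genes named above), 9 held a library whose distance from the nearest other library, as a share of the group's range, was above Dixon's 95% critical value, which chance gives in about 1 in 20 groups. Among the members these were Calb2 in PTZ replicate 1, at 44.2 FPKM with the nearest PTZ library at 21.3 FPKM, and Reln in the same library, at 15.7 FPKM with the nearest at 10.7 FPKM. That library also held the highest cerebellar marker sum, 197 FPKM. In control replicate 2, which held the highest striatal marker sum, the gene Dlx6 was at 6.31 FPKM (nearest 2.68), Hcn2 at 60.4 FPKM (nearest 45.5) and Slc32a1 at 58.6 FPKM (nearest 40.8). In PTZ+Q808 replicate 2, Fyn was at 58.4 FPKM (nearest 51.2) and Kcns3 at 4.46 FPKM (nearest 6.58). Necab2 was at 54.3 FPKM in PTZ replicate 4 (nearest 45.3), and Hpca was at 1003 FPKM in PTZ replicate 5 (nearest 820).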

How the results depend on the processing

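No member was called in any comparison under any of the 26 settings tried, and of 699 member values 672 kept their direction. The number of genes called moved more. In PTZ versus control it was 4, against 1 with no filter, 1 with only the 2 groups compared, 0 with the replicate block, 7 with weights per library, 0 without the 3 libraries with another tissue's markers and 8 with a term for Y-linked transcripts, and 1 to 5 when 1 library was left out. In PTZ+Q808 versus control it was 366, against 190, 197, 4, 1100, 35 and 564 in that order, and 17 to 673 when 1 library was left out (17 without control replicate 1). In PTZ+Q808 versus PTZ it was 0, against 2 with no filter. Replicate numbers did not pair the samples (correlations of same-numbered deviations -0.28 to 0.143). Without the 3 libraries, the log2 change turned sign in PTZ versus control for Pvalb (-0.069), Reln (-0.012), Kcnc1 (-0.0061) and Hapln2 (0.012), in PTZ+Q808 versus control for Reln (-0.077) and Lhx6 (-0.013), and in PTZ+Q808 versus PTZ for Pvalb (0.019), Lhx6 (-0.057) and Kcnc1 (0.0067). With weights per library it turned in PTZ+Q808 versus PTZ for Reln (0.016) and Erbb4 (0.029). Leaving out 1 library spanned 0 in PTZ versus control for Pvalb (-0.071 to 0.17), Kcnc2 (-0.045 to 0.088) and Erbin (-0.0050 to 0.26), and in PTZ+Q808 versus control for Reln (-0.011 to 0.21), Kcnc1 (-0.025 to 0.040) and Kcnc2 (-0.0096 to 0.12). It did so in PTZ+Q808 versus PTZ for Reln (-0.18 to 0.038), Lhx6 (-0.029 to 0.062), Kcnc2 (-0.0068 to 0.079), Erbb4 (-0.18 to 0.14) and Nos1 (-0.026 to 0.26). The number of correlated pairs was 3, against 1 without PTZ replicate 1, and 1 to 4 when 1 library was left out. The calls of Hapln1, Necab1 and Pafah1b1 ended with the replicate block (limma adjusted p = 0.0920, 0.0903 and 0.0705) and without PTZ+Q808 replicate 1 or 5 or control replicate 1, 3 or 4. Those of Hapln1 and Necab1 also ended with no filter, with only the 2 groups compared and without PTZ+Q808 replicate 3, that of Hapln1 without PTZ+Q808 replicate 2 and that of Necab1 without control replicate 2. Vip passed with only the 2 groups compared, with weights per library, without PTZ replicate 1 and with the term for Y-linked transcripts. Erbb3 passed without PTZ+Q808 replicate 4 and with that term, and Erbin without control replicate 2. The causes were not tested. A minimum of 5 FPKM left no value for Lhx6.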
